A study of Mus musculus with 6 samples.

Results

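Pleiotrophin (Ptn) and midkine (Mdk) are the members of a small family of secreted, heparin-binding growth factors. Syndecans (Sdc) and glypicans (Gpc) are the main proteoglycans that carry heparan sulphate on the cell surface. Their expression was followed in mouse embryonic fibroblasts (MEFs, connective tissue cells cultured from embryos) with and without functional Pax7. The 10 genes taken were Ptn, Mdk, Sdc1 to Sdc4, Gpc1, Gpc3, Gpc4 and Gpc6, out of 22180 genes with a probe set (the group of probes that reads a transcript) naming 1 gene. Where a gene had 2 such probe sets, the one with the higher mean over all 6 arrays was used. The family was taken up because Ptn was already known to be lower in the knockout in these data. The differences between genotypes of the 10 genes are therefore given as a description.

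The wild type cells were Pax7+/+ and the knockout cells Pax7-/-, both from the cross F1 (C57Bl6N x 129Sv). They were grown in serum-containing medium and frozen at confluence, with 3 arrays per genotype labelled as biological replicates 1 to 3. No label tells which embryos or cultures a replicate number stands for, nor the embryos' age, so the p-values measure the spread between these samples, which may be technical. Values are log2 signals, and every difference is knockout minus wild type.

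Pleiotrophin and midkine bind the sulphated sugar chains of proteoglycans with their basic domains and signal through receptors such as the phosphatase PTPRZ1, the kinase ALK and the lipoprotein receptor LRP1. Syndecans span the membrane and hold heparan sulphate chains far out from it, while glypicans are tied to the outer leaflet by a lipid anchor and carry chains close to it. Both act as co-receptors for growth factors, and in fibroblasts syndecan-4 takes part in focal adhesions together with integrins.

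Only the promoter sequences in RefSeq could be set beside these genes, and entries were found for 6 of them (Ptn, Sdc1, Sdc3, Sdc4, Gpc3 and Gpc4), but not for Mdk, Sdc2, Gpc1 and Gpc6. Of the 4 genes that were lower in the knockout in all 3 replicates, 3 have an entry, and the 250 bases before the start of each are printed from build GRCm38.p6. Ptn lies at chr6:36810180-36810429 (minus strand), Sdc4 at chr2:164443189-164443438 (minus strand) and Gpc3 at chrX:52613975-52614224 (minus strand). Capitals mark TAAT (the core that homeodomains such as that of Pax7 bind), GGGCGG (the GC box) and TATAA (the TATA core), each on both strands.
Ptn: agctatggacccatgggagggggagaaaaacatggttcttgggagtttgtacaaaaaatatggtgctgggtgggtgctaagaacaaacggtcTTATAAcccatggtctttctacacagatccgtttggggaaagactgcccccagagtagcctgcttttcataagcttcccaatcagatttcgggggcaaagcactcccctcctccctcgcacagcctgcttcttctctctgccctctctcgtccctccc
Sdc4: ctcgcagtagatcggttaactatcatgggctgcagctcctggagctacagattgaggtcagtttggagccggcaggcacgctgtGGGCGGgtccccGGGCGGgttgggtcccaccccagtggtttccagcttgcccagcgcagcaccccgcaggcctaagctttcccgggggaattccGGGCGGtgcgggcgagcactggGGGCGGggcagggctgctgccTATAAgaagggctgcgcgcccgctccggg
Gpc3: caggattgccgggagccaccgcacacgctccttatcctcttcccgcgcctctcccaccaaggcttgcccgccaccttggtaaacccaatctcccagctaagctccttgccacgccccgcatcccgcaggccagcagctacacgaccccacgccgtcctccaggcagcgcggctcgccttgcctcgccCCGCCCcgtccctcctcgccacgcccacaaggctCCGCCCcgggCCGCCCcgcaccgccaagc

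The Ptn stretch differed from the others in composition: 52.0% of its bases were G or C, against 68.0% for Sdc4 and 71.6% for Gpc3, and a median of 52.4% over 32851 windows of this length. It held 0 GC boxes, Sdc4 had 4 and Gpc3 had 3, where 32.7% of all windows hold at least 1. The capitals in Ptn are a TATAA that overlaps its own reverse complement, and Sdc4 holds 1 TATAA, a motif found in 22.8% of windows. TAAT was absent from all 3 stretches and from Sdc3 and Gpc4, and Sdc1 held 1, where 54.9% of windows hold at least 1. The E-box CANNTG occurred only in Sdc1, 1 time, against 66.2% of all windows. These matches describe letters in the window and say nothing about binding.

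The arrays of replicate 3 stood apart from the rest in both genotypes. Over all genes they correlated at 0.992 with each other and at 0.814 to 0.844 with the other 4 arrays, which correlated at 0.988 to 0.990 among themselves. The background level of an array was taken as the value that 95% of 1394 odorant and pheromone receptor genes did not exceed (4.63 to 5.44), and all 10 genes lay above it on all 6 arrays. The single Pax7 probe set read 6.14, 5.65 and 4.88 in wild type and 6.17, 5.95 and 5.05 in the knockout. It was thus higher in the knockout in each replicate and showed no fall. In wild type it lay close to background (6.14, 5.65 and 4.88 against levels of 5.44, 5.33 and 4.65), where a fall would be hard to see. No source used here tells whether that probe set lies inside the deletion, and one outside it checks nothing, so the genotypes rest on the labels. As cell type the labels give ESCs (embryonic stem cells), while titles and source names give fibroblasts. Of 15 fibroblast markers, 14 were above background in both genotypes, and of 13 measured stem cell markers, 6 were. Of the stem cell markers, Pou5f1, Klf2 and Lin28a were above it on all 6 arrays. Pou5f1 lay only 0.05 to 0.45 above background on the log2 scale, Lin28a 0.28 to 1.02 and Klf2 0.71 to 1.80. Sox2, Zfp42, Esrrb, Dppa5a, Tdgf1 and Utf1 were above it on no array.

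The clearest difference of the family lay in the growth factor Ptn. In wild type its log2 signal was 8.54 in replicate 1, 8.66 in replicate 2 and 9.44 in replicate 3, against 7.85, 7.91 and 8.83 in the knockout. The knockout was lower by a similar amount in each replicate (-0.69, -0.75 and -0.61), although the ranges of the genotypes overlapped, with both replicate 3 arrays above the others of their genotype. The mean difference was -0.68, or 1.61-fold lower (limma SE 0.09 with the replicate number as a block, 0.38 without). In bulk samples such as these, fewer cells of a type and less RNA per cell cannot be told apart.

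With the block, Ptn was among 17 genes past an adjusted p of 0.05 in limma (0.0766% of all genes; 15 lower, 0.0676%, and 2 higher, 0.00902%). That call is what brought the family to notice and it lay close to the threshold (adjusted p = 0.0400). It was lost after quantile normalization of the arrays (-0.67, adjusted p = 0.0545) and with the block but without replicate 2 (-0.65, adjusted p = 0.204) or replicate 3 (-0.72, adjusted p = 0.0954). With genotype as the only term, limma called no gene (0 of 22180, 0.00%), and 15 genes, none of the 10, had an unadjusted p under 0.05. Omission of wild type replicate 3, which leaves the genotypes with unequal numbers of replicate 3 arrays, moved the unblocked difference of Ptn to -0.40.

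Mdk, the only relative of Ptn, showed no such difference. Its signal was 5.62, 5.57 and 5.54 in wild type and 5.63, 5.60 and 5.28 in the knockout, so the first pairs of values were nearly equal and only knockout replicate 3 stood lower. It lay close to the background level, by as little as 0.18 on the log2 scale. The mean difference of -0.07 had a 95% interval with the block of -0.29 to 0.15 (limma, adjusted p = 0.936), which leaves out a change of the size seen in Ptn. Near background such a signal understates differences.

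**Figure D1:**
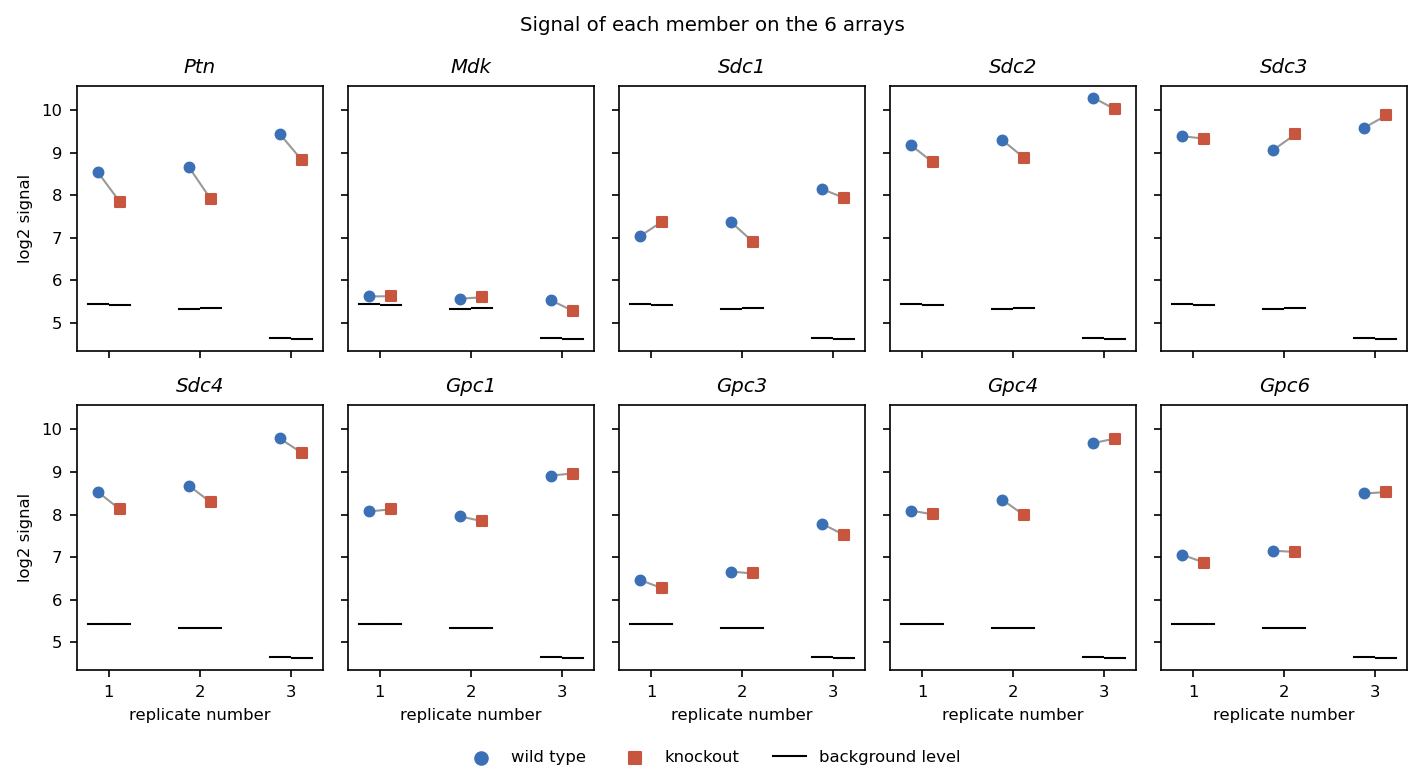
Log2 signal (y axis) of each of the 10 genes on the 6 arrays by replicate number (x axis), wild type as blue circles and knockout as red squares joined within a replicate, with the background level of each array as a black line. Ptn, Sdc2 and Sdc4 slope down in all 3 replicates, Mdk lies just above background, and 9 genes are higher in replicate 3; levels of different genes are not comparable.

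The 4 syndecans, the transmembrane carriers, did not go one way. Vertebrate syndecans form a pair of subfamilies, Sdc2 with Sdc4 and Sdc1 with Sdc3. Sdc2, the syndecan named for fibroblasts (fibroglycan), read 9.17, 9.29 and 10.29 in wild type and 8.77, 8.88 and 10.02 in the knockout. The knockout value was the lower one in each replicate, with differences of -0.40, -0.42 and -0.27. Their mean was -0.36, or 1.29-fold (SE 0.09 with the block; 95% interval -0.57 to -0.16; limma, adjusted p = 0.401), so Sdc2 did not pass over all genes.

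Sdc4, the syndecan of focal adhesions, gave nearly the same picture. Its signal was 8.53, 8.68 and 9.79 in wild type and 8.13, 8.29 and 9.45 in the knockout. The differences of -0.40, -0.39 and -0.33 spanned only 0.07 on the log2 scale, the narrowest span of the 10 genes. The mean was -0.38, or 1.30-fold (SE 0.09 with the block; 95% interval -0.58 to -0.17; limma, adjusted p = 0.347). Without the block the intervals of Sdc2 and Sdc4 ran from -1.53 to 0.80 and from -1.62 to 0.87. Neither gene passed the threshold in any alternative run, and the lowest adjusted p was 0.140 for Sdc2 and 0.150 for Sdc4, both with an intensity trend in the variance and the block. Without the block and without wild type replicate 3, the difference of Sdc4 turned to 0.018 and that of Sdc2 shrank to -0.010.

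Sdc1, the syndecan best known from epithelia and plasma cells, had no common direction. It read 7.04, 7.37 and 8.14 in wild type and 7.38, 6.90 and 7.94 in the knockout, which put the knockout higher in replicate 1 (0.34) and lower in replicates 2 and 3 (-0.46 and -0.21). These differences spanned 0.80, the widest span of the family, around a mean of -0.11 (95% interval with the block -0.43 to 0.21; limma, adjusted p = 0.923). A second probe set naming Sdc1 was above background on 1 array only, knockout replicate 3, and averaging it in turned the mean difference to 0.054.

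Sdc3, the syndecan prominent in nerve and muscle precursors, was the one gene of the family with a positive mean. It read 9.38, 9.06 and 9.58 in wild type and 9.33, 9.42 and 9.87 in the knockout. The knockout was higher in replicates 2 and 3 (0.37 and 0.29) and about level in replicate 1 (-0.06). The mean of 0.20 had a 95% interval with the block of -0.04 to 0.44 (limma, adjusted p = 0.792).

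**Figure D2:**
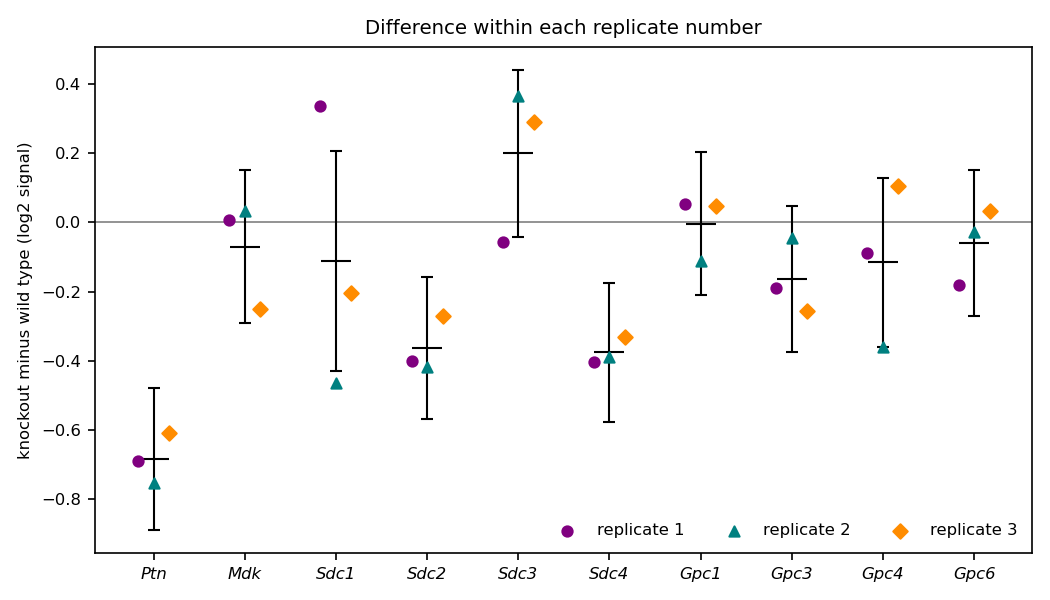
Knockout minus wild type in log2 signal (y axis) for each of the 10 genes (x axis), with symbols for the difference within replicate 1, 2 and 3 and a bar for the mean with its 95% interval from limma with the replicate block. The 3 symbols of Ptn (-0.75 to -0.61), Sdc2 and Sdc4 lie close together below 0, those of Sdc1 spread from -0.46 to 0.34, those of Gpc3 all lie below 0 (-0.26 to -0.05), and those of Gpc1, Gpc4 and Gpc6 lie on both sides of 0.

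Among the lipid-anchored glypicans, Gpc3, an overgrowth-related regulator of hedgehog signalling, was the one with the same sign throughout. It read 6.46, 6.66 and 7.78 in wild type and 6.27, 6.62 and 7.53 in the knockout. The differences were -0.19, -0.05 and -0.26, so that replicate 2 was close to level, around a mean of -0.16 (95% interval with the block -0.37 to 0.05; limma, adjusted p = 0.799). Gpc4, its neighbour on the X chromosome, read 8.09, 8.35 and 9.68 in wild type and 8.00, 7.99 and 9.78 in the knockout. Its differences changed sign between replicates (-0.09, -0.36 and 0.10; mean -0.12, 95% interval -0.36 to 0.13; limma, adjusted p = 0.894).

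Gpc6, a close relative of Gpc4, read 7.05, 7.15 and 8.50 in wild type and 6.87, 7.12 and 8.53 in the knockout, with a mean difference of -0.06 (95% interval -0.27 to 0.15; limma, adjusted p = 0.946). Only replicate 1 stood clearly below 0 (-0.18). Gpc1, a broadly expressed glypican, read 8.07, 7.96 and 8.92 in wild type and 8.12, 7.85 and 8.96 in the knockout. The genotypes were level, with differences of 0.05, -0.11 and 0.05 and an interval with the block of -0.21 to 0.20 (limma, adjusted p = 0.999).

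The probe sets of Gpc1 disagreed on replicate 3. The second one read 7.42, 7.47 and 5.50 in wild type and 7.24, 7.13 and 5.92 in the knockout, so it was lower in replicate 3 where the first was higher. Its own differences were -0.18, -0.34 and 0.42, against at most 0.11 in size for the first. Which of them follows Gpc1 transcript was not tested.

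In all, 4 of the 10 genes (Ptn, Sdc2, Sdc4 and Gpc3) were lower and 0 higher in all 3 replicates, where 13.8% of all genes were lower and 13.8% higher. The median difference was -0.11 over the 10 genes and -0.00 over all genes. In replicates 1 and 2 alone, a setting chosen after the data were seen, 6 were lower (24.6% of all genes) and 1 was higher (24.2%). The 2 that joined were Gpc4 and Gpc6, and the higher one was Mdk. None of the 10 had genotypes without overlap (0.744% of all genes were lower and 0.667% higher without overlap). Because the family was assembled with this contrast known, nothing is read from these shares.

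The arrays of replicate 3 also differed from the others in the level of most of these genes. Their values as a whole were spread more widely. The span between lower and upper quartile was 2.56 (wild type) and 2.52 (knockout), against 1.88 to 1.94 on the other arrays. The background level was 4.65 and 4.63, against 5.33 to 5.44. The steps below therefore compare arrays of unlike scale, and whether expression itself differed was not tested. On replicate 3, 9 of the 10 genes were higher than the mean of replicates 1 and 2 in both genotypes, by 0.36 (Sdc3 in wild type) to 1.79 (Gpc4 in the knockout). Mdk was lower (-0.06 in wild type and -0.33 in the knockout). Ptn was higher by 0.84 in wild type and 0.95 in the knockout, steps larger than its difference between genotypes. Of the 11773 genes above background in both genotypes, 69.9% were higher on replicate 3 in wild type, with a median step of 0.82. The 9 genes thus moved with most genes of that set. A gene above background on replicate 3 alone can belong to the set, so the rule can favour such steps. Over all 22180 genes, 45.8% were higher on replicate 3 in wild type, with a median step of -0.095.

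**Figure D3:**
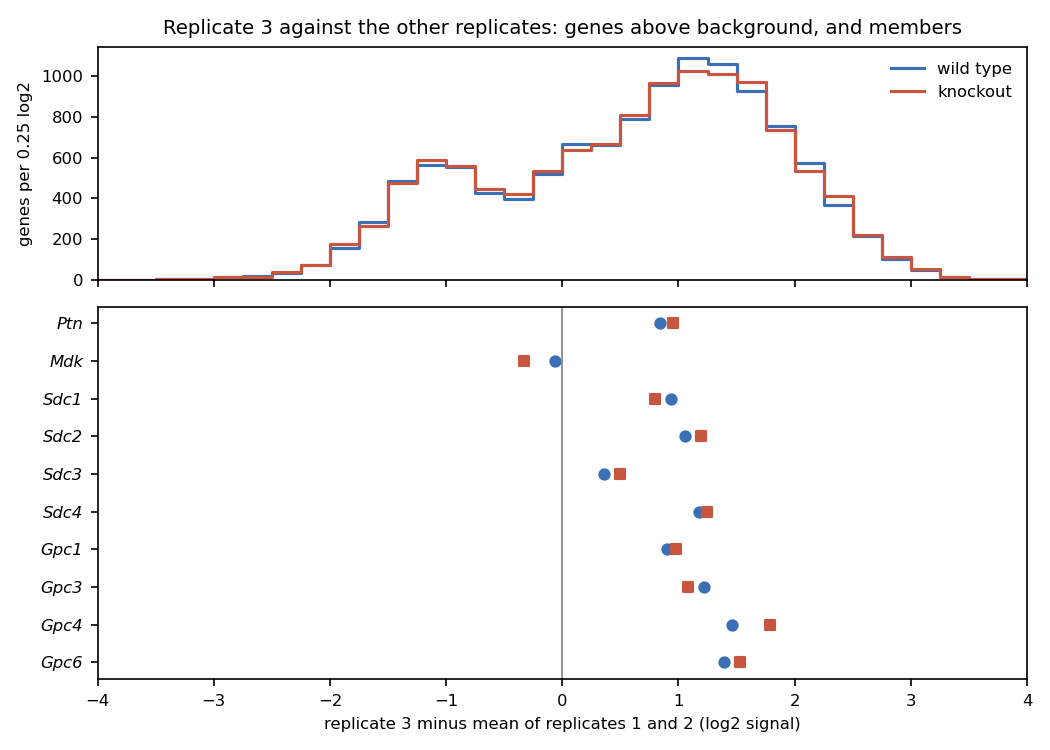
Replicate 3 minus the mean of replicates 1 and 2 in log2 signal (x axis): above, the number of the 11773 genes above background per step of 0.25 (y axis) in wild type (blue) and knockout (red); below, the 10 genes with wild type as blue circles and knockout as red squares. Of the 10 genes, all but Mdk lie between 0.36 and 1.79, on the side of 0 where most of the 11773 genes lie too.

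Genes whose pattern over the 6 arrays was most like that of Ptn were sought by the root mean square distance between values after subtraction of each gene's mean, over 11772 other genes above background. The nearest were Peg3, an imprinted zinc finger gene (distance 0.08; difference -0.59), the chemokine Cxcl14 (0.10; -0.58) and the collagen VI chain Col6a3 (0.12; -0.62). Next came Syt13, a synaptotagmin (0.12; -0.57), and the mesenchymal transcription factor Osr1 (0.12; -0.62). Of the family, Sdc2 came nearest, at rank 35 with a distance of 0.19, followed by Sdc4 at rank 57 with 0.22, and Mdk was the farthest at 0.61. The 6 arrays share the replicate step, which weighs heavily in this measure. The measure also spans both genotypes, so genes this near to Ptn must differ between genotypes much as Ptn does. Their differences are therefore no separate result.

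The genes that receive, build and trim these molecules were described from lists chosen by function. Over 105 measured genes, 1 passed the threshold with the block (the Igfbp3 described below, lower; background 0.0676%) and 0 without it. In all, 17 were lower and 26 higher in all 3 replicates, or 16.2% and 24.8%, against 13.8% of all genes for each. These counts, and those for each list below, include genes not above background. Of the 17 and 26, 15 and 23 were above it in both genotypes. The median difference of the 105 genes was 0.02, and -0.00 over all genes. Among the 13 receptors of pleiotrophin and midkine, 2 were lower and 4 higher in all 3 replicates, and none passed.

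Ptprz1, the receptor phosphatase of pleiotrophin, read 4.94, 5.40 and 8.54 in wild type and 4.76, 4.84 and 8.19 in the knockout. It was lower in each replicate (-0.18, -0.56 and -0.35; limma with the block, adjusted p = 0.484) but above background only in wild type replicate 2 and on the replicate 3 arrays. Itga6, the integrin alpha 6 chain, was at 0.35 (0.60, 0.10 and 0.35; adjusted p = 0.573). Nrp1, a co-receptor named after its values were seen, was at 0.26 (0.37, 0.15 and 0.26; adjusted p = 0.648). Itga6 and Nrp1 were thus higher in each replicate, and Ptprz1 lower.

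Of the 11 other heparan sulphate proteoglycans and related surface or matrix proteoglycans, 0 were lower and 4 higher in all 3 replicates, with a median of 0.04. Agrn, the basement membrane proteoglycan agrin, was at 0.22 (0.17, 0.33 and 0.17; limma with the block, adjusted p = 0.705). Tgfbr3, betaglycan, was at -0.30 (0.18, -0.25 and -0.84; adjusted p = 0.792), a value that rests on replicates 2 and 3. Gpc5, Srgn and Spock1 were not above background in either genotype.

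The 17 enzymes and suppliers of chain synthesis had a median of -0.00, with 2 lower and 1 higher in all 3 replicates. B3galt6, which adds a galactose of the linker between chain and core protein, was at -0.21 (-0.18, -0.17 and -0.28; limma with the block, adjusted p = 0.727). Pxylp1, the phosphatase that acts on the linker's xylose, was at -0.15 (adjusted p = 0.828). Neither passed, and the list showed no common direction.

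Of the 13 measured sulphotransferases, 1 was lower and 4 higher in all 3 replicates, and none passed. Hs2st1, which sulphates the uronic acid of heparan sulphate, had the largest difference of them. It read 6.11, 6.35 and 8.25 in wild type and 6.74, 6.97 and 8.59 in the knockout, higher in each replicate. The differences of 0.63, 0.62 and 0.34 had a mean of 0.53 (SE 0.10 with the block, 0.76 without; limma with the block, adjusted p = 0.156). Hs3st3b1, a 3-O-sulphotransferase, was at 0.18 (adjusted p = 0.788).

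Among 16 genes that trim the chains or shed the core proteins, 3 were lower and 5 higher in all 3 replicates. Sulf2, an enzyme that removes 6-O-sulphates outside the cell, was at 0.20 (0.27, 0.14 and 0.19; limma with the block, adjusted p = 0.750), and its relative Sulf1, named after its values were seen, at 0.16 (0.15, 0.22 and 0.12; adjusted p = 0.794). Mmp2, a gelatinase able to cleave syndecan ectodomains, was at 0.27 (0.34, 0.24 and 0.24; adjusted p = 0.607). None of these passed, although each had the same sign throughout.

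The 10 measured partners of the syndecan tail had a median of -0.02, with 1 lower and 2 higher in all 3 replicates. Cask, a scaffold that binds the end of the syndecan tail, was at -0.21 (limma with the block, adjusted p = 0.756). Pdcd6ip, which works with syntenin and syndecans in exosome formation, was at 0.13 (adjusted p = 0.864). The partners as a list thus showed no common direction.

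The 25 measured other heparin-binding factors went both ways, with 8 lower and 6 higher in all 3 replicates. Igfbp3, an IGF-binding protein that also binds heparin, fell with the block by 0.73 on the log2 scale (-0.57, -0.79 and -0.82; limma, adjusted p = 0.0400). This call was lost with the block and without replicate 2 (adjusted p = 0.204) or replicate 3 (adjusted p = 0.140). Hbegf, the heparin-binding EGF-like factor, named after its values were seen, was at 0.50 (0.54, 0.55 and 0.40; adjusted p = 0.153). Without the block, omission of 1 array moved Hbegf to between 0.027 (without knockout replicate 3) and 1.01 (without wild type replicate 3), and omission of wild type replicate 3 moved Igfbp3 to -0.33 and Slit3 to -0.043. Others named in that way were Bmp4 at -0.37 (adjusted p = 0.362) and the guidance ligands Slit2 and Slit3 at -0.25 and -0.35 (adjusted p = 0.664 and 0.427). None of the latter 4 passed.

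**Figure D4:**
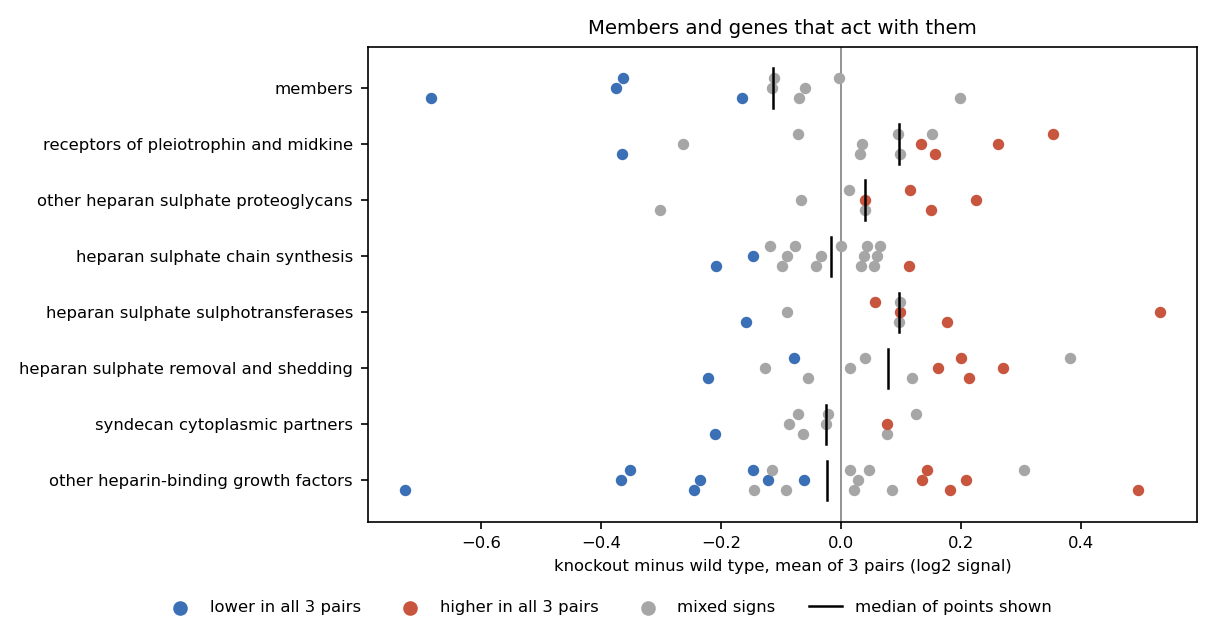
Mean difference between knockout and wild type in log2 signal (x axis) of the 10 genes (members) and of the genes above background in the 7 lists by function (y axis), coloured blue where lower in all 3 replicates, red where higher and grey where signs were mixed; black bars are medians of the points shown. Ptn and Igfbp3 lie farthest to the left at -0.68 and -0.73, and Hs2st1 (0.53) and Hbegf (0.50) farthest to the right.

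Markers of cell types were read beside these values, and none of them passed the threshold with the block (limma). Of 15 fibroblast markers, 8 were lower and 0 higher in all 3 replicates, with a median of -0.12. Over all genes, 13.8% were lower and 13.8% higher. Their summed linear signal was 12632 to 16530 in wild type and 11845 to 15225 in the knockout. The largest of the 8, named after their values were seen, were Lum at -1.16, Postn at -0.43, Prrx1 at -0.42 and Col3a1 at -0.40 (limma with the block, adjusted p = 0.127, 0.214, 0.295 and 0.432). Lum was above background on 2 arrays only. Of 13 measured stem cell markers, 4 were lower and 0 higher, with sums of 358 to 536 and 327 to 529. Such counts of signs, here and below, include markers not above background.

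Of 12 skeletal muscle markers, 6 were above background in both genotypes, among them Acta1 and Des on all 6 arrays, while Myf5, Myf6, Myh3 and Mymk were above it on none. In all 3 replicates 0 were lower and 4 higher, with a median difference of 0.06. The 4 were Des, Myog, Tnnt1 and Ckm, of which Ckm was not above background in wild type. The sums were 962 to 1137 in wild type and 1126 to 1382 in the knockout. Acta1, which had the highest signal and so the most weight in them, had mixed signs (-0.04, 0.14 and 0.70). Of 14 neural markers, 6 were above background in both genotypes, among them Nes and Tubb3 on all 6 arrays, and Elavl4, Dcx, Nefl and Olig2 on none. There 1 was lower (Elavl4, above background on no array) and 2 higher, with sums of 699 to 949 and 751 to 1196. Nes, an intermediate filament gene of progenitor cells, was at 0.45 (0.44, 0.29 and 0.62; limma with the block, adjusted p = 0.276).

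Of 8 measured Schwann cell and neural crest markers, 6 were above background in both genotypes, with Pmp22, Egr2 and Foxd3 on all 6 arrays and Cdh19 and S100b on none. There 1 was lower and 2 higher, with sums of 715 to 998 and 671 to 974. The lower one was Pmp22, a myelin protein gene, at -0.58 (-0.47, -0.84 and -0.43; limma with the block, adjusted p = 0.155), a difference close in size to that of Ptn. Nes and Pmp22 were named after their values were seen.

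Of 11 measured epithelial markers, 4 were above background in both genotypes (Krt8, Krt18 and Epcam on all 6 arrays, 5 markers on none), and 0 were lower and 2 higher, with sums of 311 to 498 and 317 to 481. Of 10 endothelial markers, 3 were above background in both (Flt1 and Erg on all 6, 6 markers on none, Pecam1 and Kdr among them), and 3 were lower and 3 higher, with sums of 366 to 397 and 382 to 396. Of 12 macrophage markers, 5 were above it in both (Csf1r, Fcer1g and C1qa on all 6, 3 markers on none, Ptprc among them), and 4 were lower and 1 higher, with sums of 440 to 484 and 433 to 474. Of 10 cartilage markers, 7 were above it in both (4 on all 6 and 2 on none), and 1 was lower and 2 higher, with sums of 479 to 676 and 531 to 671. These counts hold markers not above background in either genotype, among them Krt14, Tie1, Esam, Tek, Emcn, Lyz2, Aif1, Hapln1 and Chad. The part of any of these shifts in the values of Ptn, Sdc2 and Sdc4 was not tested.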

How the data were processed

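RNA of 6 samples (3 per genotype) was measured on Affymetrix arrays. The authors deposited log2 signals for each probe set, for which the submitters' processing notes name Partek and RMA (a background correction, normalization and probe summary); no source used here gives versions, parameters or a build, and base 2 follows from RMA and the values' range. Array number limits precision, and no depth applies. Of 41345 probe sets, 23521 named 1 gene in the platform annotation, 1814 several, and 16010 were not listed; 22180 genes remained after taking, per gene, the probe set with the highest mean.

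The genotypes were compared in limma 3.58.1, R 4.3.3 (lmFit, eBayes, two-sided), Benjamini-Hochberg adjusted over all genes at 0.05, without a block and, as an alternative, with the replicate number as a block. SEs and intervals are limma's. Deviations from genotype means correlated at 0.920, 0.895 and 0.973 for replicates 1, 2 and 3, each over the bound of 0.1, so the numbers were taken as pairs. This pairing comes from the data and rests on replicate 3, which stood apart in both genotypes. Replicates 1 and 2 of opposite genotype also correlated at 0.898 and 0.910, both above the 0.895 of the matched replicate 2. So the data do not tell which of these arrays belong together, and the bound of 0.1 could not test it. Differences within replicates 1 and 2, and counts of genes lower or higher in all 3, rest on the numbering. Fits were tested on simulated data that took the replicate pairing as given, so that test cannot judge the pairing. A gene is called not above background in a genotype if at or below the level on all 3 arrays or in the mean.

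Members, lists, background rule and tests were chosen with earlier results of these data known. Named were all 10 members, from each list the genes that passed or, failing any, the 2 above background with the smallest blocked p, and the 5 genes most like Ptn; others are said to be named after their values were seen. Ndst1, Hs3st3a1, Mmp15, Rack1 and Areg, without a usable probe set, were not analysed here. Alternatives were a replicate or batch block, quantile normalization, a background filter, means over probe sets, an intensity trend and leaving out arrays or replicates.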

Additional observations from a re-analysis of the deposited data

How the results depend on the processing

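Without the replicate block, limma called 0 genes in the main setting, under quantile normalization, the background filter and means over probe sets, and without any 1 array (0 to 0). With the block it called 17 genes over the table, 1 of the 10 genes (Ptn) and 1 of the listed genes (Igfbp3). With a block of replicates 1 and 2 against 3, a split that no label gives, it called 19, 1 and 1. The other settings with the block gave 42, 1 and 1 with the background filter, 54 and 1 of the 10 with an intensity trend, 16 and 1 of the 10 with means over probe sets, and 21, 0 and 1 after quantile normalization. The block without 1 replicate gave 2 to 98 genes over the table, namely 98 without replicate 1, 2 without replicate 2 and 4 without replicate 3, and 0 to 1 in the 10 genes and in the lists. The cause was not tested. Apart from omitted arrays, the difference turned its sign for Gpc1 after quantile normalization (0.016 with and without the block) and for Sdc1 with means over probe sets (0.054 with and without). Leaving out 1 array without the block gives the genotypes unequal numbers of replicate 3 arrays, and differences then changed sign over these ranges: Agrn -0.032 to 0.51, Bmp4 -0.86 to 0.12, Cask -0.89 to 0.40, Gpc1 -0.33 to 0.30, Gpc3 -0.52 to 0.24, Gpc4 -0.71 to 0.37, Gpc6 -0.57 to 0.40, Hs2st1 -0.048 to 1.21, Hs3st3b1 -0.23 to 0.53, Itga6 -0.050 to 0.76, Mdk -0.13 to 0.040, Mmp2 -0.014 to 0.57, Nrp1 -0.19 to 0.71, Pdcd6ip -0.20 to 0.42, Ptprz1 -1.49 to 0.76, Sdc1 -0.38 to 0.20, Sdc4 -0.79 to 0.018, Slit2 -0.55 to 0.030, Sulf1 -0.37 to 0.72, Sulf2 -0.18 to 0.58 and Tgfbr3 -0.71 to 0.28. With the block and 1 replicate left out, they did for Gpc1 -0.032 to 0.050, Gpc4 -0.22 to 0.0078, Gpc6 -0.10 to 0.0015, Mdk -0.12 to 0.020 and Sdc1 -0.33 to 0.066. Those of B3galt6 (-0.25 to -0.17), Col6a3 (-1.0 to -0.27), Cxcl14 (-0.90 to -0.23), Hbegf (0.027 to 1.01), Igfbp3 (-1.08 to -0.33), Osr1 (-0.88 to -0.37), Peg3 (-0.97 to -0.28), Pxylp1 (-0.23 to -0.0013), Sdc2 (-0.76 to -0.010), Sdc3 (0.035 to 0.32), Slit3 (-0.62 to -0.043) and Syt13 (-0.95 to -0.23) kept their sign without 1 array. That of Ptn ran from -1.0 to -0.40 and, with the block, from -0.72 to -0.65. In replicates 1 and 2 alone, 1 of the 10 genes was higher in every pair, against 0 in all 3. Arrays number 3 a genotype, and signal over background limits Mdk, which lay as little as 0.18 above it.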

Other observations

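The genomic neighbours of some of these genes were read from the RefSeq gene table (GRCm38.p6), counting protein-coding genes. Ptn lies between Chrm2 and Dgki, and Mdk between Chrm4 and Dgkz, so that both growth factors sit between a muscarinic receptor gene and a diacylglycerol kinase gene. Gpc4 lies next to Gpc3, and Gpc6 next to Gpc5, which was not above background here.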
